A study of Mus musculus with 8 samples.

Results

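The 9 genes described here encode the core of the MHC class I presentation pathway: the heavy chains H2-K1, H2-D1 and H2-T23, the light chain B2m, the peptide transporter subunits Tap1 and Tap2, the loading factor Tapbp, the peptidase Erap1 and the transcriptional regulator Nlrc5. They were chosen by name, as the genes of the count table whose Ensembl ID maps to these symbols, and each had 1 ID among the 55414 in the table. All 9 were counted well enough to be tested, among 11929 tested genes. Mouse Paneth cells, which secrete antimicrobial peptides from the bottom of the intestinal crypts, were purified by FACS from the small intestine for poly(A) RNA sequencing. The TG group (4 libraries) came from transgenic mice with the genotype label DT TG, whose Paneth cells express diphtheria toxin, and the WT group (4 libraries) came from wild type mice. The series title describes depletion of mature Paneth cells, so the TG libraries hold RNA of cells that could still be sorted. The study states C57BL/6J as the strain of its sorted mice in general. The labels give neither the promoter that drives the toxin nor the strain, age or sex of the mice. Class I alleles differ between mouse strains, so if the groups differed in strain, reads of H2-K1, H2-D1 and related genes could align unequally to the reference, which was not tested. They number the replicates without tying them to animals, and the study describes its sorted samples in general as taken from single mice.

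MHC class I molecules show short peptides from inside a cell to CD8 T cells. Peptides made by the proteasome are pumped into the endoplasmic reticulum by the Tap1 and Tap2 transporter, trimmed by Erap1 and fitted into a heavy chain paired with B2m, with the help of tapasin, the product of Tapbp. In the nucleus Nlrc5 acts on class I promoters together with factors bound to a conserved promoter module, and interferons and NF-kB are further known inducers of these genes.

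Promoter sequences from RefSeq (assembly GRCm38.p6, windows of 300 bases of which 250 lie before the annotated start) could be matched for 7 of the 9 members. Tap2 and Nlrc5 had no entry. Short motifs were read on both strands: GAANNGAAA and GAAANNGAA as 2 forms of an interferon response element, TTCNNNGAA as a STAT site and GGGNNTTNC as an NF-kB site. TGACG and CCAAT were read as the X2 and Y boxes of the conserved class I module. The windows of the 3 members whose level did not overlap between the groups (H2-K1, H2-D1 and B2m) and of H2-T23, a heavy chain that did not pass the test, are printed on the strand of the gene. Capitals mark matches of the interferon response and NF-kB motifs on either strand. H2-K1 lay at chr17:34000298-34000597 on the minus strand, H2-D1 at chr17:35262844-35263143 on the plus strand, B2m at chr2:122147437-122147736 on the plus strand and H2-T23 at chr17:36032652-36032951 on the minus strand. H2-K1 had a further annotated start 14 bases away, whose window held the same matches.
H2-K1: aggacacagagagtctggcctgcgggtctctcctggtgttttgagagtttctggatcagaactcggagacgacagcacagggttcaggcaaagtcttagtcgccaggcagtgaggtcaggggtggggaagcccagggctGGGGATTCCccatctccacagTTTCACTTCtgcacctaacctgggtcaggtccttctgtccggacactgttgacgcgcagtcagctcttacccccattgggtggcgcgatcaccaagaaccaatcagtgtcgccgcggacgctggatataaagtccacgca
H2-D1: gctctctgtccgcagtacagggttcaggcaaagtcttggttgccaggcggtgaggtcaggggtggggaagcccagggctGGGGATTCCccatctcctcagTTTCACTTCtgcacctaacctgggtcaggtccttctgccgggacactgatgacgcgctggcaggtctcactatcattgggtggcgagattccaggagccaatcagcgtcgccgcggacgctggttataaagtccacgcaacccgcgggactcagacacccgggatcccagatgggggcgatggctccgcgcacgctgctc
B2m: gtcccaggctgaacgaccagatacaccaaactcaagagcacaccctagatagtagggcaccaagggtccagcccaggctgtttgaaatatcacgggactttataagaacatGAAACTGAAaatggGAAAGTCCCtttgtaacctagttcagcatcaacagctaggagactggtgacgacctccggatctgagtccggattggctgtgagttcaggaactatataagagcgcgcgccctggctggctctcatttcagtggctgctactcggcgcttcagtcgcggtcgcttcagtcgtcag
H2-T23: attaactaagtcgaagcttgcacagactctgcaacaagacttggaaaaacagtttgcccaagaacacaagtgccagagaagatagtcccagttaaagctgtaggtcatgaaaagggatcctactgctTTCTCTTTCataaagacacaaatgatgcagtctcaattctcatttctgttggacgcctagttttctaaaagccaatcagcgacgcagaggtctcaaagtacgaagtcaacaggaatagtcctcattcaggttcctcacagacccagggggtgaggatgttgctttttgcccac

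In H2-K1 and H2-D1 an NF-kB motif and an interferon response motif stood in the same order with the same spacing. They began at -111 and -90 from the start in H2-K1, and at -171 and -150 in H2-D1. In B2m the order was the opposite, with the interferon response motif at -139 and the NF-kB motif at -125. H2-T23 held an interferon response motif at -123 and no NF-kB motif. The X2 motif was found in the windows of H2-K1, H2-D1, B2m and Tap1, and the Y motif in those of all matched members except Erap1. Among 32851 mouse promoter windows of the same length, 7.52% held GAANNGAAA, 8.56% held GAAANNGAA, 15.2% held GGGNNTTNC, 20.8% held TGACG and 37.4% held CCAAT. The STAT motif TTCNNNGAA was in 8.3% of these windows and in no member window. The NF-kB motif together with either interferon response motif, a pairing chosen after the matches were seen, was present in 2.19% of windows and in 3 of the 7 member windows, those of H2-K1, H2-D1 and B2m. The printed sequences of H2-K1 and H2-D1 are nearly alike around both motifs, so these windows are not separate observations. A match describes the letters only.

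**Figure D1:**
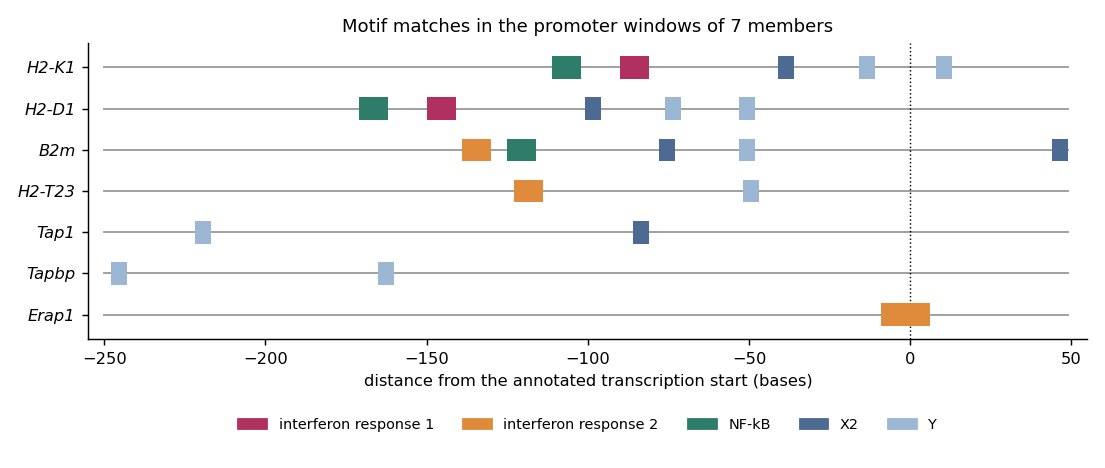
Motif matches along the promoter windows of 7 class I presentation genes. The x axis gives the distance from the annotated transcription start in bases, each grey line is a window of 300 bases, and each box is a match on either strand (interferon response 1 is GAANNGAAA, interferon response 2 is GAAANNGAA). H2-K1, H2-D1 and B2m hold an NF-kB box next to an interferon response box, and the 2 boxes of Erap1 overlap at the start.

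The libraries held 13107397 to 16218434 counts in total and 13519 to 21681 counts of the 9 members. Levels are given in CPM, the count scaled to a common library size, here by the TMM method of edgeR. The sorted cells carried the label's markers: 7 Paneth cell genes, among them Lyz1 and the alpha-defensins Defa24 and Defa30, summed to 370148 to 454520 CPM in TG and 351232 to 529804 CPM in WT. Within this list Mptx2, Mmp7 and Ang4 fell (log2 fold change -1.35, -0.59 and -0.57), with Mmp7 losing its call without TG-2 (edgeR adjusted p = 0.0588) and Ang4 in 6 of the 8 fits that left out a library. The 11 markers of T and natural killer cells summed to at most 1.13 CPM in any TG library and 0.904 CPM in any WT library, with Cd3g, Cd8b1 and Gzma at 0 counts in all 8. The 6 B and plasma cell markers reached 0.304 CPM in TG and 0.559 CPM in WT, and the 7 stromal and endothelial markers 0.437 and 0.802 CPM. The 8 myeloid markers summed to 9.37 to 30.4 CPM in TG and 12.2 to 19.0 CPM in WT, with Csf1r and Adgre1 at 0 counts throughout. Only Lyz2 among them was counted well enough to be tested, and it was not called (log2 fold change 0.43). Enterocyte markers were higher in TG, with a summed level of 116 to 253 CPM against 54.3 to 101 CPM in WT. Of 8 markers 4 passed the test, among them Apob (log2 fold change 1.07), Alpi (2.56) and Mttp (0.59), and 7 passed in DESeq2 and with the replicate block, with 3 to 5 when a library was left out. Of 5 stem cell markers, Slc12a2 rose (0.41) and Smoc2 fell (-0.35). Goblet markers summed to 8547 to 11834 CPM in TG and 10745 to 12499 CPM in WT, and tuft markers to 19.3 to 62.3 and 21.2 to 45.3 CPM. Enteroendocrine markers summed to 3.44 to 11.1 CPM in TG and 6.47 to 39.2 CPM in WT, with a median log2 fold change of -1.66 over 3 tested genes. In edgeR and DESeq2 0 genes of these 3 lists passed, 1 goblet gene was lower at an unadjusted p below 0.05, and with the replicate block 2 enteroendocrine genes and 1 goblet gene were lower. The part of these cell types in the results below was not tested. Replicates 1 and 2 of both groups held no counts of 4 Y-linked genes and replicates 3 and 4 held 897 to 1564, so this split is balanced between TG and WT.

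The classical heavy chains, the light chain and a transporter subunit were lower in the TG libraries, and no member was called higher. In edgeR's quasi-likelihood test over all tested genes, 4 of 9 members fell at an adjusted p below 0.05 (H2-D1, H2-K1, B2m and Tap2) and 0 rose. Over all tested genes 17.9% were called, 9.65% lower and 8.26% higher. Without adjustment 7 of 9 members were lower and 0 higher at p below 0.05, against 17.1% and 16% of all tested genes. DESeq2 called 5 members lower and 0 higher, against 10.8% and 9.34% of all genes. With the replicate number as a block, edgeR called 7 lower and 0 higher, against 9.76% and 8.71% of all genes. The 3 that gained the call with this replicate block were Nlrc5, Tap1 and Tapbp. All 9 fitted changes were negative, with a median log2 fold change (TG over WT) of -0.43 against 0.01 over all tested genes. In 3 of 9 members (H2-K1, H2-D1 and B2m) every TG library was below every WT library, which 12% of all tested genes showed, and 22% showed no overlap in either direction. The members are few and were chosen by name, so these counts describe them and no test was made over the list. In bulk samples, fewer cells that express a gene and less RNA of it per cell cannot be told apart.

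**Figure D2:**
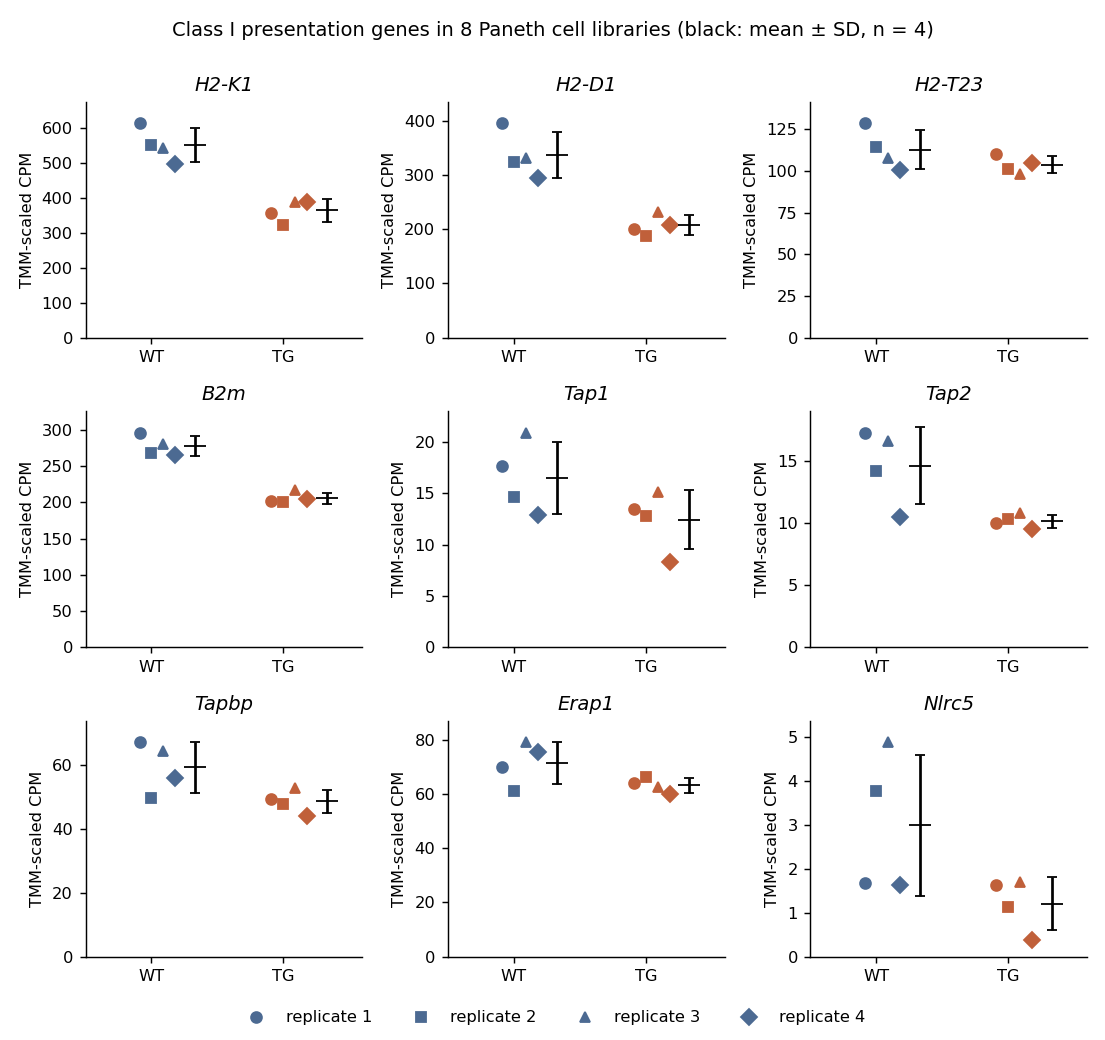
TMM-scaled CPM of the 9 class I presentation genes in each library, WT in blue and TG in orange, with a symbol for each replicate number and the mean ± SD (n = 4) in black. The TG points of H2-K1, H2-D1 and B2m lie below all WT points, those of the other 6 genes overlap with WT, and each y axis starts at 0.

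H2-K1 (ENSMUSG00000061232, GRCm39 chromosome 17, 34214987 to 34219321, minus strand), a classical heavy chain that presents peptides to CD8 T cells, was the most abundant member. Its level was 613, 550, 543 and 495 CPM in WT-1 to WT-4 and 356, 322, 388 and 389 CPM in TG-1 to TG-4. The groups did not overlap, and the TG mean was 66.1% of the WT mean. The log2 fold change was -0.60 ± 0.10 (SE), with an adjusted p of 0.00195 in edgeR. Among all tested genes this change stood at percentile 3.86, counted from the most negative.

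H2-D1 (ENSMUSG00000073411, chromosome 17, 35481691 to 35486475, plus strand), the other classical heavy chain, had a more negative fitted change. Its ratio to H2-K1, given below, overlapped between the groups. The WT libraries held 395, 323, 331 and 295 CPM and the TG libraries 201, 188, 232 and 208 CPM. No TG library reached the lowest WT library, and the TG mean was 61.6% of the WT mean. Its log2 fold change was -0.70 ± 0.11 (edgeR adjusted p = 0.00111), at percentile 2.78 of all tested genes. Both classical heavy chains stayed below 0.05 in each of the 8 fits that left out a library, with adjusted p of at most 0.0110 for H2-K1 and 0.00681 for H2-D1.

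H2-T23 (ENSMUSG00000067212, chromosome 17, 36340229 to 36345571, minus strand) encodes Qa-1, a non-classical heavy chain that is a ligand of NKG2 receptors. It held 128, 114, 108 and 101 CPM in WT-1 to WT-4 and 110, 101, 98.3 and 104 CPM in TG-1 to TG-4. The ranges overlapped widely. The log2 fold change of -0.12 ± 0.09 did not pass the test (edgeR adjusted p = 0.374), nor did it in any of 21 alternative settings. B2m (ENSMUSG00000060802, chromosome 2, 121977957 to 121983594, plus strand), the light chain shared by all these heavy chains, had a fitted change between those of H2-K1 and H2-T23. Its WT levels were 296, 268, 281 and 266 CPM and its TG levels 202, 201, 217 and 205 CPM. The groups did not overlap, and relative to its mean this member varied least within groups, with an SD of 5.07% of the mean in WT and 3.598% in TG. The log2 fold change was -0.43 ± 0.08 (edgeR adjusted p = 0.00362). With library totals as the only scaling it was -0.32 and missed the threshold (adjusted p = 0.0742).

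Ratios within a library do not depend on its scaling. There were 4.77, 4.82, 5.04 and 4.93 counts of H2-K1 per count of H2-T23 in WT-1 to WT-4, and 3.23, 3.18, 3.95 and 3.73 in TG-1 to TG-4. The TG ratios were thus all below the WT ratios, at a mean of 3.52 ± 0.377 (SD, n = 4) against 4.89 ± 0.12 (exact two-sided permutation test over 70 assignments, p = 0.0286, adjusted p = 0.0763). The ratio of H2-D1 to H2-T23 was 2.01 ± 0.244 in TG and 2.98 ± 0.118 in WT (n = 4 each, exact permutation p = 0.0286, adjusted p = 0.0763). For H2-D1 to B2m the ratio was 1.01 ± 0.0548 in TG and 1.21 ± 0.0928 in WT, with the same exact permutation p values. H2-K1 to B2m overlapped between the groups (1.77 ± 0.123 in TG, 1.98 ± 0.0960 in WT, exact permutation p = 0.0571). H2-D1 to H2-K1, the ratio between the classical chains, overlapped between the groups (0.570 ± 0.0269 in TG, 0.610 ± 0.0251 in WT, exact permutation p = 0.0857). These belong to 8 ratios that were chosen after the levels were seen. The smallest p that 4 against 4 libraries allow is 0.0286, and none of the 8 passed adjustment.

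The transporter subunits were counted at low levels. Tap1 (ENSMUSG00000037321, chromosome 17, 34405996 to 34416199, plus strand) held 17.6, 14.6, 20.9 and 12.9 CPM in WT and 13.4, 12.8, 15.1 and 8.35 CPM in TG. The groups overlapped, and the log2 fold change of -0.40 ± 0.18 did not pass (edgeR adjusted p = 0.146, or 0.0263 with the replicate block). Tap2 (ENSMUSG00000024339, chromosome 17, 34422501 to 34435829, plus strand) held 17.3, 14.2, 16.6 and 10.5 CPM in WT and 9.9997, 10.3, 10.8 and 9.57 CPM in TG. The TG libraries were close to each other, and only TG-3 exceeded a WT library, WT-4. The log2 fold change was -0.52 ± 0.15 (edgeR adjusted p = 0.0246). This call was the least stable of the 4. It was lost without TG-1, TG-2, TG-4, WT-1 or WT-3 (adjusted p of 0.0504 to 0.0749), in limma voom (0.0560) and with library totals only (0.176).

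Tapbp (ENSMUSG00000024308, chromosome 17, 34134873 to 34148267, plus strand), which bridges the transporter and the empty heavy chain, held 67.2, 49.7, 64.4 and 56.0 CPM in WT and 49.5, 47.9, 52.9 and 44.2 CPM in TG. WT-2 lay within the TG range, and the log2 fold change of -0.29 ± 0.10 did not pass (edgeR adjusted p = 0.0647, or 0.0486 with the replicate block). Erap1 (ENSMUSG00000021583, chromosome 13, 74787687 to 74841320, plus strand), the peptidase that trims peptides in the endoplasmic reticulum, held 69.8, 61.1, 79.2 and 75.5 CPM in WT and 64.1, 66.4, 62.6 and 59.8 CPM in TG. Its groups overlapped through WT-2, and its log2 fold change was -0.18 ± 0.09 (edgeR adjusted p = 0.195).

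Nlrc5 (ENSMUSG00000074151, chromosome 8, 95160984 to 95253900, plus strand), the transactivator of class I genes, had the fewest counts and the most negative fitted change of the members. It was represented by 21, 54, 73 and 22 counts in WT-1 to WT-4 and by 26, 16, 30 and 5 counts in TG-1 to TG-4. This corresponds to 1.68, 3.76, 4.88 and 1.64 CPM in WT and 1.62, 1.12, 1.69 and 0.38 CPM in TG. WT-1 and WT-4 were at the level of TG-1 and TG-3, while WT-2 and WT-3 stood above all others. The log2 fold change of -1.28 ± 0.44 did not pass in edgeR (adjusted p = 0.0614) and passed with the replicate block (0.0184) and in DESeq2 (0.0242).

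Per kilobase of annotated exon, the mean level in WT fell from H2-K1 (173 ± 15.2 CPM per kb, SD, n = 4) through B2m (132 ± 6.69), H2-D1 (112 ± 14.1), H2-T23 (32.9 ± 3.46), Tapbp (13.5 ± 1.81), Erap1 (8.81 ± 0.969), Tap2 (3.08 ± 0.649) and Tap1 (2.75 ± 0.590) to Nlrc5 (0.352 ± 0.189). In WT the ranges of mean ± SD overlapped between B2m and H2-D1 and between Tap2 and Tap1, and the other neighbours in this order were further apart. With this length the order of the means was the same in TG, where H2-K1 was at 114 ± 10.02, B2m at 97.7 ± 3.52, H2-D1 at 69.2 ± 6.13 and H2-T23 at 30.2 ± 1.499 CPM per kb. Tap2 and Tap1 overlapped in TG as well, at 2.14 ± 0.111 and 2.07 ± 0.480. With the longest transcript as the length, Tap1 came before Tap2 in both groups (4.22 against 3.69 CPM per kb in WT). H2-D1 then also came before B2m in WT (158 against 137 CPM per kb) and stayed behind it in TG (97.2 against 101), so the order of these neighbours depends on the length used.

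Within a group the members did not all order the libraries alike. WT-1 was the highest WT library for 6 members, including H2-K1, H2-D1 and B2m, and WT-3 for Tap1, Erap1 and Nlrc5. WT-4 was the lowest WT library for 7 members. TG-4 was the lowest TG library for Tap1, Tap2, Tapbp, Erap1 and Nlrc5, while TG-2 was the lowest for H2-K1, H2-D1 and B2m. TG-3 was the highest TG library for 6 members. The classical chains with B2m and the transporter and regulator genes thus had their lowest TG values in different libraries.

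In the 4 libraries without Y-linked counts, H2-K1 changed by -0.78 (edgeR adjusted p = 0.00800), H2-D1 by -0.89 (0.00423), B2m by -0.49 (0.0453) and Tap2 by -0.63 (0.0515) on the log2 scale. In the 4 libraries with Y-linked counts the same genes changed by -0.41 (edgeR adjusted p = 0.127), -0.50 (0.0673), -0.37 (0.123) and -0.41 (0.382). Each of these fits compares 2 libraries with 2, and all 9 members had a negative fitted change in both. In the latter 4 libraries 0 members passed, and 6 were lower at an unadjusted p below 0.05, where 8.44% of all genes were lower and 9.13% higher. The difference between the classes was tested as an interaction in edgeR and did not pass for any member (adjusted p of 0.884 to 0.987, unadjusted p of at least 0.0656).

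Neither the counting strand nor the handling of reads with several alignments is known for this table, so the share of each gene that other genes could claim was computed. Of all windows of 75 bases along their exons, 93.4% for H2-K1, 92.4% for H2-D1, 92.3% for H2-T23 and 99.2% for Tapbp occurred at 1 place among all annotated exons, and 100% for the other 5 members. Antisense transcripts covered 26.8% of the exon bases of H2-K1 (Gm53999), 24.2% of those of H2-D1 (5430410E06Rik) and 11.9% of those of H2-T23 (A930015D03Rik). They also covered 25.6% of those of Tapbp (Gm19412) and 11.2% of those of Tap2 (Gm15821). None of these 5 antisense genes was among the tested genes. Erap1 shared 10.3% with Cast on the opposite strand (log2 fold change of Cast 0.05 ± 0.08, edgeR adjusted p = 0.697). Tap1 shared 12.4% of its exon bases with Psmb9 on the opposite strand. Psmb9 itself fell (log2 fold change -0.86 ± 0.27, edgeR adjusted p = 0.0474) and lost its call in 6 of the 8 fits that left out a library, all but those without TG-3 or WT-4 (0.0555 to 0.130). Its part in the counts of Tap1 was not tested. Tapbp shared 20.9% with Zbtb22 on the same strand (log2 fold change of Zbtb22 0.06 ± 0.11, edgeR adjusted p = 0.749). B2m overlapped no other gene.

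The remaining genes of the pathway were read from lists grouped by role. Of 7 peptide loading partners, 5 fell and 0 rose, with a median log2 fold change of -0.45. Tapbpl, the tapasin-related peptide editor, changed by -0.48 ± 0.09 (edgeR adjusted p = 0.00297), from 29.3, 31.3, 32.3 and 28.3 CPM in WT to 22.1, 21.6, 22.8 and 20.2 CPM in TG. Calr, the chaperone calreticulin, changed by -0.68 ± 0.14 (edgeR adjusted p = 0.00500), and Sec61a1, the pore of the translocation channel, by -0.45 ± 0.11 (0.00997). Calr and Sec61a1 serve the folding and import of secretory proteins in general, not class I molecules alone.

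The immunoproteasome is an inducible form of the proteasome whose catalytic subunits Psmb8, Psmb9 and Psmb10 replace constitutive ones. Of 6 genes of the immunoproteasome, its activator and its assembly, 4 fell and 0 rose (median -0.46). Psmb8 had the largest change, from 25.9, 23.4, 36.1 and 15.2 CPM in WT to 11.7, 9.49, 11.7 and 6.91 CPM in TG. The groups did not overlap, and the log2 fold change was -1.33 ± 0.26 (edgeR adjusted p = 0.00935). Psmb10 changed by -0.54 ± 0.12 (0.00997 in edgeR) and Psme2, a subunit of the proteasome activator, by -0.39 ± 0.11 (0.0303). Of the 5 constitutive counterparts 3 also fell and 0 rose, with a median of -0.29, among them Psme3 (-0.35 ± 0.08, edgeR adjusted p = 0.00885), Psmb6 (-0.29 ± 0.09, 0.0382) and Psmb5 (-0.33 ± 0.11, 0.0483). Fits without TG-1, TG-2, WT-1 or WT-3 each lost the calls of Psme2, Psmb6 and Psmb5 (adjusted p of up to 0.0923, 0.121 and 0.149), and so did several fits without another library. The count ratio of Psmb8 to Psmb5, its constitutive counterpart, was 0.623 ± 0.161 in TG and 1.25 ± 0.437 in WT (n = 4 each, exact permutation p = 0.0571, adjusted p = 0.0914). Psmb9 to Psmb6 (0.160 ± 0.0461 and 0.242 ± 0.0832, exact permutation p = 0.143) and Psmb10 to Psmb7 (0.748 ± 0.0835 and 0.896 ± 0.104, exact permutation p = 0.0857) overlapped between TG and WT, as did Psmb8 to Psmb5.

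Among 7 cytosolic and secretory-pathway peptidases, 3 fell and 1 rose (median -0.10, or 0.01 with library totals only). Lap3, a leucine aminopeptidase, changed by -0.61 ± 0.10 (edgeR adjusted p = 0.00166), Tpp2 by -0.38 ± 0.09 (0.00928) and Thop1, which degrades peptides, by -0.40 ± 0.11 (0.0220). The Thop1 call was lost without TG-1, TG-2 or TG-3 (adjusted p of up to 0.0762). Lnpep, named outside the rule because it was the only one that rose, changed by 0.36 ± 0.11 (edgeR adjusted p = 0.0342) and lost its call without TG-1, TG-2, TG-3, WT-1 or WT-3 (up to 0.107). Of 22 regulators of class I transcription and interferon signalling, 3 fell and 0 rose, with a median of -0.04 that became 0.07 with library totals only. Ifnar1, a chain of the type I interferon receptor, changed by -0.37 ± 0.09 (edgeR adjusted p = 0.0124) and Nfkb1 by -0.25 ± 0.08 (0.0429). The Nfkb1 call held only in the fit without WT-3, with adjusted p of 0.0520 to 0.115 in the other 7 fits that left out a library. Of 4 tested genes known to lower class I at the surface, 0 were called in edgeR or DESeq2 and 0 had an unadjusted p below 0.05 (median 0.11).

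The other class I and class I-like chains had changes in both directions. Of 12 tested genes, 1 rose and 2 fell, with a median of 0.01. Fcgrt, the heavy chain of the neonatal Fc receptor, rose by 0.99 ± 0.24 on the log2 scale (edgeR adjusted p = 0.0120), from 1.44, 2.16, 1.94 and 1.49 CPM in WT to 2.81, 4.15, 3.89 and 3.19 CPM in TG. H2-Q2 changed by -0.39 ± 0.11 (0.0247 in edgeR) and H2-Q7 by -1.14 ± 0.34 (0.0317). For these genes 92.3% (H2-Q2) and 80.3% (H2-Q7) of windows occurred at 1 place. As for H2-K1, H2-D1 and H2-T23, reads from the other windows could have been assigned to another place, and their values are uncertain to that extent. The H2-Q2 call was lost without TG-2, TG-4 or WT-1 (adjusted p of up to 0.0898) and the H2-Q7 call without TG-1, TG-2, TG-4 or WT-3 (up to 0.108). In the annotated stretch of chromosome 17 from H2-K1 to H2-M3 (GRCm39, 34214987 to 37585384), which holds 5 members, the 93 other tested genes had 5 called higher and 16 called lower, or 17.2% lower against 9.65% over all tested genes, with a median of 0.01. Only members were left out, so these 93 genes of the stretch include listed genes already reported as lower, among them Psmb8, Psmb9, H2-Q2 and H2-Q7. The called genes there with the smallest p on no list were the complement gene C4b (-2.50 ± 0.33, edgeR adjusted p = 0.00185), the mitochondrial ribosome gene Mrps18b (-0.80 ± 0.13, 0.00195) and the receptor gene Notch4 (0.57 ± 0.10, 0.00284).

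Class II and interferon-stimulated genes were read beside the members. Of 8 tested class II presentation genes, 2 fell in edgeR, 7 in edgeR with the replicate block and 7 in DESeq2, with a median of -1.84. H2-Aa, a class II chain, held 69.1, 65.7, 112 and 61.1 CPM in WT and 15.6, 11.5, 31.9 and 3.34 CPM in TG (-2.28 ± 0.60, edgeR adjusted p = 0.0482). H2-DMb1, which helps to load class II, changed by -2.25 ± 0.40 (0.00914 in edgeR). The H2-Aa call held only without TG-3 or TG-4 and otherwise had an adjusted p of 0.0724 to 0.136 when 1 library was left out. Without TG-3, 6 class II genes fell. Of 15 tested interferon-stimulated genes, 5 fell and 0 rose in edgeR (median -0.68). With the replicate block 7 fell, and 7 fell in DESeq2. Irgm1, an immunity-related GTPase, held 45.1, 45.8, 46.4 and 36.4 CPM in WT and 27.5, 23.1, 25.5 and 21.3 CPM in TG. Its log2 fold change was -0.83 ± 0.11 (edgeR adjusted p = 0.000587), and it passed in all 21 alternative settings. Zbp1, a nucleic acid sensor, changed by -0.81 ± 0.15 (0.00269 in edgeR) and Igtp, another GTPase of this family, by -1.24 ± 0.27 (0.00727).

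The counts in these lists depended on the replicate block, the scaling and single libraries. With the replicate block 6 immunoproteasome genes, 4 constitutive counterparts and 2 regulators fell, where 9.76% of all tested genes were lower. The numbers of loading partners (5) and peptidases (3) that fell stayed the same. With library totals only, the median of all tested genes moved from 0.01 to 0.12 and the share of them called lower from 9.65% to 2.2%. The number of loading partners that fell dropped from 5 to 1, of immunoproteasome genes from 4 to 1 and of constitutive counterparts from 3 to 0. For peptidases it dropped from 3 to 1 and for regulators from 3 to 0. Other class I and class I-like chains went from 2 to 0, class II genes from 2 to 1 and interferon-stimulated genes from 5 to 3. H2-K1 and H2-D1 passed under that scaling as well (log2 fold change -0.48 and -0.58, edgeR adjusted p = 0.0136 and 0.00767), against the all-gene median of 0.12. When 1 library was left out, 3 to 5 loading partners, 2 to 5 immunoproteasome genes, 1 to 4 constitutive counterparts, 2 to 3 peptidases, 2 to 3 regulators, 1 to 6 class II genes and 3 to 5 interferon-stimulated genes fell, with the lowest of each number reached without TG-1, and the highest for the proteasome lists without WT-2. Over all tested genes, 4.61% to 9.76% were called lower in these fits.

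**Figure D3:**
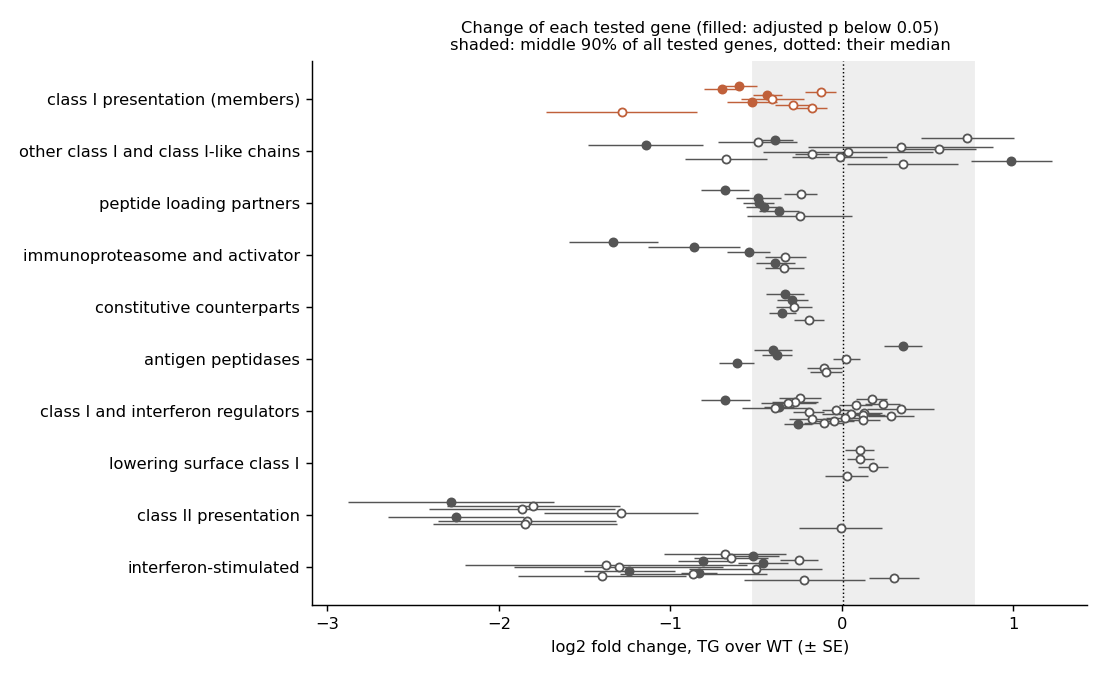
Log2 fold change (TG over WT) ± SE of each tested gene by list, with the 9 class I presentation genes in orange and filled symbols for an edgeR adjusted p below 0.05. The grey band holds the middle 90% of all tested genes and the dotted line is their median of 0.01. All 9 members lie to the left of the dotted line, and the class II genes reach furthest to the left.

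Across the 8 libraries Psmb8, Psmb9, H2-Aa, H2-DMb1, Cd74 and Ciita had their highest level in WT-3 and their lowest in TG-4, as Tap1 and Nlrc5 did, a feature noticed after the values were seen. Ciita, the class II transactivator related to Nlrc5, held 9.42, 9.60, 18.9 and 6.62 CPM in WT-1 to WT-4 and 3.06, 1.83, 6.09 and 1.06 CPM in TG-1 to TG-4. TG-3 was thus the TG library nearest to WT for Ciita, and it was so for H2-Aa too. By contrast H2-K1, H2-D1 and B2m were highest in WT-1 and lowest in TG-2.

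**Figure D4:**
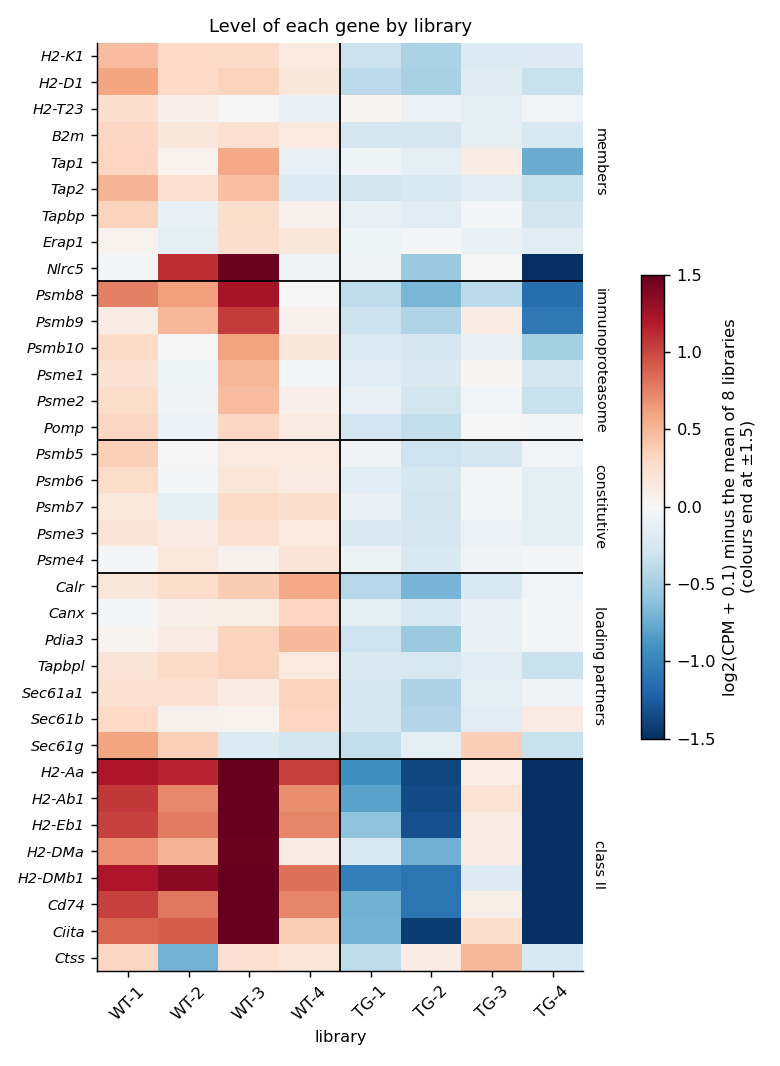
Heat map of log2(CPM + 0.1) minus the mean of the 8 libraries for the members and for immunoproteasome, constitutive proteasome, loading partner and class II genes (rows), by library (columns). Red is above and blue below the mean of the gene, and colours end at ±1.5. WT-3 and TG-4 are the extremes for Nlrc5, Psmb8, Psmb9 and most class II genes, while H2-K1, H2-D1 and B2m are above their mean in all WT and below it in all TG libraries.

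The genes whose profile over the 8 libraries came nearest to the mean profile of the members were sought among 8117 other genes with a mean log2 CPM of at least 3, by the root mean square (RMS) difference of centred log2 CPM. They were Rnf145 (0.052), a ubiquitin ligase of the endoplasmic reticulum, Irf8 (0.084), an interferon regulatory factor, Clp1 (0.085), an RNA kinase, Mybbp1a (0.088), a nucleolar protein, and Unc93b1 (0.089), which escorts Toll-like receptors to endosomes. The median RMS difference of all candidates was 0.31, and the members themselves ranged from 0.12 for B2m to 0.70 for Nlrc5. Each member had the same weight in the mean, and Nlrc5, with the fewest counts, had the widest centred values (-1.83 in TG-4 and 1.45 in WT-3).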

How the data were processed

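For the 8 libraries the authors deposited raw counts, as whole numbers for each Ensembl gene ID, in 1 table. The submitters' processing notes name FastQC 0.12.0, STAR 2.7.0a, DESeq2 and the mm39 build, and the study's own methods name the same build and another STAR version. For this table the counting tool and strand setting are not given in the sources consulted. Symbols and positions came from GENCODE M39 on GRCm39, which matched 54749 of 55414 IDs.

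Counts were fitted in edgeR 4.0.16 (R 4.3.3) after TMM scaling and edgeR's default filter on low counts, with robust quasi-likelihood tests of TG against WT, with Benjamini-Hochberg adjustment over 11929 genes at 0.05. Standard errors were derived from the log2 fold change and the F statistic. DESeq2 1.42.0 and limma 3.58.1 (voom) served as alternatives, beside other scalings, filters, covariates and subsets of libraries. The fits were tested on simulated data. Replicates differed beyond sampling noise (chi-square per degree of freedom of at least 5.20), so all 8 libraries were counted separately. Precision rests on counts, and 5 to 73 counts per library lay behind Nlrc5.

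All members were named. Of the other lists, the 3 called genes with the smallest p were named, as were the 3 called genes off the lists in the chromosome 17 region and the 5 genes nearest in profile. A gene that this rule would name is not reported here. The members and lists were chosen with earlier results of these data known.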

Additional observations from a re-analysis of the deposited data

How the results depend on the processing

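No member changed its sign in any of 21 alternative settings, and of 189 member values 161 kept their side of the threshold, 13 lost it and 15 gained it. The number of members called lower was 4. It was 2 with library totals only (where 2.2% of all genes were lower), 7 without a filter (where 6.28% were lower) and 7 with the replicate block (where 9.76% were lower). It was also 7 with the replicate block and an offset for GC content and length (where 13.5% of all genes were lower and 7.44% higher). In the libraries with Y-linked counts alone it was 0 (edgeR, where 6 members and 8.44% of all genes were lower at an unadjusted p below 0.05). Leaving out 1 library at a time gave 3 to 5 members, where 4.61% to 9.76% of all genes were lower. H2-K1 and H2-D1 lost their call only in the libraries with Y-linked counts, and B2m lost it there and with library totals. Over all genes, 1151 were lower and 985 higher. These became 263 lower and 787 higher with library totals only, 638 lower and 500 higher in the libraries without Y-linked counts, 103 lower and 113 higher in those with them, and 553 to 1183 lower and 485 to 1045 higher without 1 library. The count of lower genes was 553 without TG-1 and 570 without TG-2, and the count of higher genes 533 and 485. The cause was not tested, although the subsets hold fewer samples. The labels do not say what a replicate number shares. Deviations of libraries with the same number correlated at 0.08, 0.07, 0.29 and 0.23 over all tested genes and at 0.27, 0.18, 0.39 and 0.37 over the 1000 most variable genes, so whether every pair exceeds 0.1 depends on the genes used. TG-1, TG-2 and WT-2 did not correlate best with their own number under either choice. Values without the replicate block are therefore given first, with the replicate block values beside the member calls it changes. Low counts limit Nlrc5, Tap1 and Tap2.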
